A study of Homo sapiens with 6 samples.

Results

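The genes described here are MYC and the genes around it on the long arm of chromosome 8 (band 8q24), the same band that holds POU5F1B. Of 10 symbols chosen (MYC, PVT1, TRIB1, FAM84B, NSMCE2, GSDMC, CCAT1, CASC8, PCAT1 and ASAP1), 9 matched a row by Ensembl gene identifier among 63677 rows per library, and CCAT1 was not analysed here. FAM84B is now named LRATD2. RNA was sequenced from SW480, a human colorectal adenocarcinoma line, carrying a doxycycline-inducible lentiviral vector for either GFP or HA-tagged POU5F1B, with 3 libraries of each. Cells of both groups were transduced at a low virus dose, selected with puromycin as a mixed population and given doxycycline at 1 µg per mL for 72 h, so the controls shared the vector, the selection and the drug. The POU5F1B insert had been amplified from genomic DNA of DLD1, another colorectal cancer line. The comparison asked whether native transcripts of 8q24 differed between cells making POU5F1B from a vector and GFP cells. The GFP libraries had at most 6 counts of POU5F1B. The sources used here do not say whether the 3 libraries of a group were separate cultures, so each p-value measures only the spread between these libraries.

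MYC is a basic helix-loop-helix transcription factor that binds DNA as a dimer with MAX and drives genes for ribosome production, nucleotide synthesis and cell growth. In colorectal cancer cells with a defective APC gene, β-catenin and its TCF partners keep MYC on, and enhancers spread over the gene-poor stretch around POU5F1B contact the MYC promoter. The band is often gained as a block in carcinomas, and PVT1, a long noncoding RNA gene next to MYC, is frequently gained with it.

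All positions are on GRCh37 chromosome 8, with gene models from GENCODE release 44 lifted to that build. The coding sequence of POU5F1B, a retrogene derived from POU5F1 with 1 coding exon, lies on the plus strand at chr8:128428112-128429188. Downstream of it on the same strand are MYC (chr8:128747680-128755197), whose start site is 320 kb away, and PVT1 (chr8:128806772-129199347), 379 kb away. Upstream lie FAM84B on the minus strand (chr8:127564688-127570723), TRIB1 on the plus strand (chr8:126442600-126450645) and NSMCE2 on the plus strand (chr8:126103921-126379362). ASAP1 (chr8:131064350-131455920) and GSDMC (chr8:130760442-130798870), both on the minus strand, lie farther downstream. Of the 2 noncoding genes nearest to POU5F1B, CASC8 spans chr8:128302053-128494384 on the minus strand and PCAT1 spans chr8:127568568-128431295 on the plus strand, so both gene spans contain the POU5F1B coding sequence.

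Gene counts totalled 10767947 to 12787637 per library. Levels are given as CPM (counts scaled to a common library size) with the trimmed mean of M values (TMM), and 3 counts, used as a floor, correspond to 0.229 to 0.278 CPM. POU5F1B itself, the check of the labels, had 6, 5 and 1 counts in GFP replicates 1, 2 and 3, and 15027, 11393 and 1458 counts in the POU5F1B libraries, so replicate 3 of the POU5F1B group carried far less of it than the others. A vector transcript and a native transcript of POU5F1B cannot be told apart in these counts. Replicate 3 of the GFP group stood apart: the chi-square per degree of freedom of its counts against the other GFP libraries was 89.5 and 78.7, while GFP replicates 1 and 2 gave 4.21, and limma gave it a quality weight of 0.111, the lowest of the 6 (the others had 0.575 to 2.79). Values from replicates 1 and 2 of each group only, or without this library, are therefore given beside those from all 6 libraries for the tested genes of the set and wherever they change a call or an adjusted p passes 0.05. With all 6, limma voom called 0 of 14286 tested genes at an adjusted p under 0.05 and a fold above 2 (0% called), while 11.9% had an unadjusted p under 0.05 and 19.4% had groups that did not overlap. With the same limits edgeR's quasi-likelihood test called 0 genes and DESeq2 called 232.

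None of the 6 genes of the set that could be tested passed that limit, and none had an unadjusted p under 0.05, the level reached by 11.9% of all tested genes. The 95% interval of the difference lay within 2-fold in both directions for 4 of the 6, namely PVT1, TRIB1, NSMCE2 and ASAP1, as it did for 60.4% of all tested genes. For MYC and FAM84B the interval reached beyond 2-fold. Neither edgeR nor DESeq2 called any of the 6, and the log2 fold change was -0.47 and -0.46 for MYC and 0.29 and 0.31 for FAM84B by these tools. With replicates 1 and 2 only, FAM84B was higher and ASAP1 lower in POU5F1B cells at an adjusted p under 0.05 by limma (2 of 6 genes, against 29.7% of all tested genes), and FAM84B alone also passed the fold limit (1 of 6, against 8.36%).

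**Figure D1:**
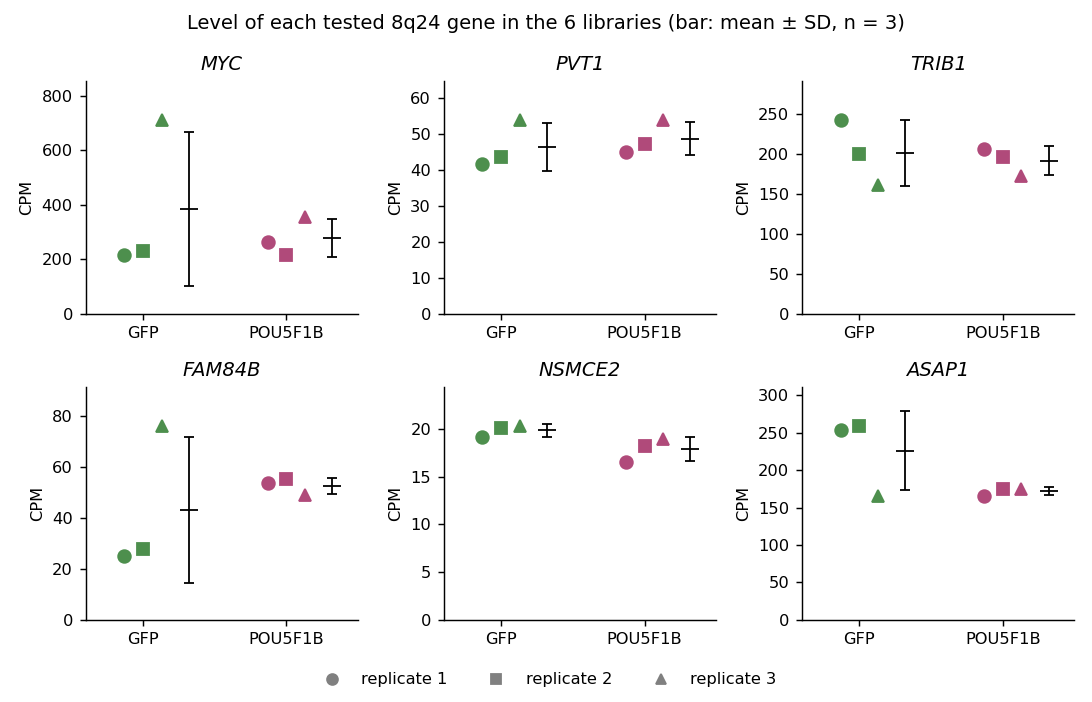
CPM of the 6 tested genes (y axis, linear from 0, a separate scale for each gene) in the GFP and POU5F1B groups, with 1 symbol per library and the mean ± SD (n = 3) beside each group. For MYC, GFP replicate 3 (711 CPM) lies far above the other 5 libraries, and for FAM84B the same library (76.2 CPM) is the highest of the 6.

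MYC had 2559, 2992 and 8173 counts in GFP replicates 1, 2 and 3, and 3341, 2330 and 4251 counts in the POU5F1B replicates. On the CPM scale these were 216, 228 and 711 in GFP cells, and 263, 216 and 354 in POU5F1B cells. The groups overlapped, GFP replicate 3 was above every other library, and the rest lay between 216 and 354 CPM. MYC averaged 385 ± 283 CPM under GFP, against 278 ± 70.2 CPM under POU5F1B (SD, n = 3 each). The log2 fold change of POU5F1B over GFP was -0.26 ± 0.47 (SE) with a limma adjusted p of 0.861, and its 95% interval ran from 0.385-fold to 1.81-fold. The direction depended on 1 library: without GFP replicate 3 the log2 fold change was 0.28 (95% interval -0.16 to 0.73, limma adjusted p = 0.365). On replicates 1 and 2 only it was 0.094, with an interval of -0.12 to 0.30 and a limma adjusted p of 0.501. MYC in GFP replicate 3 was 1.68 log2 units above the mean of GFP replicates 1 and 2, and 7.3% of all tested genes shifted by more between these libraries.

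PVT1, transcribed from the same strand as MYC and downstream of it, had 494, 572 and 620 counts in GFP cells and 572, 509 and 646 in POU5F1B cells. Its CPM were 41.6, 43.6 and 53.9 with GFP, against 45.0, 47.2 and 53.8 with POU5F1B. The groups overlapped nearly fully, and replicate 3 was the highest in both. Means were 46.4 ± 6.63 and 48.6 ± 4.58 CPM (SD, n = 3 each), a log2 fold change of 0.076 ± 0.15 (SE) with a limma adjusted p of 0.877. The 95% interval of 0.819-fold to 1.36-fold held the difference in PVT1 more tightly than that in MYC. The log2 fold change of PVT1 on replicates 1 and 2 only was 0.10 with a limma adjusted p of 0.538. In GFP replicate 3 PVT1 was 0.34 log2 units above the other GFP libraries, against 1.68 for MYC.

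The ratio of PVT1 to MYC counts, which needs no scaling between libraries, was 0.193, 0.191 and 0.0759 in GFP replicates 1 to 3, and 0.171, 0.218 and 0.152 in the POU5F1B replicates. GFP replicate 3 had the lowest ratio of the 6, and the other 5 lay between 0.152 and 0.218. The mean ratio was 0.153 ± 0.0671 in GFP cells and 0.181 ± 0.0342 in POU5F1B cells (SD, n = 3 each). The difference between the groups' means of the log2 ratio was 0.34, with p = 0.7 by a two-sided exact permutation test, for which 3 libraries against 3 allow no p below 0.1. Without GFP replicate 3 the difference was -0.11.

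FAM84B, the nearest tested protein-coding gene upstream of POU5F1B, encodes a protein with a lecithin retinol acyltransferase-like domain. It had 299, 365 and 876 counts in GFP cells and 681, 597 and 590 in POU5F1B cells. As CPM, the GFP libraries had 25.2, 27.8 and 76.2, and the POU5F1B libraries had 53.6, 55.3 and 49.1. GFP replicates 1 and 2 lay below every POU5F1B library and GFP replicate 3 lay above all of them. With all 6 libraries the means were 43.1 ± 28.7 and 52.7 ± 3.20 CPM (SD, n = 3 each), and the log2 fold change was 0.49 ± 0.39 (SE) with a limma adjusted p of 0.654 and a 95% interval of 0.738-fold to 2.69-fold. Without GFP replicate 3 it was 0.98 (95% interval 0.70 to 1.25, 1.97-fold, limma adjusted p = 0.00602), which passed the limit on p and fell just short of 2-fold. On replicates 1 and 2 only it was 1.02 (95% interval 0.77 to 1.28, 2.03-fold, limma adjusted p = 5.42e-05), past both limits. In the 3 POU5F1B libraries, where FAM84B had 49.1 to 55.3 CPM, POU5F1B itself ran from 121 to 1182 CPM, and a relation between the levels of the 2 genes was not tested. On the opposite strand PCAT1 shares 1409 exon bases with FAM84B, and PCAT1 had at most 3 counts in any library.

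TRIB1 encodes a pseudokinase that brings the ubiquitin ligase COP1 to C/EBP transcription factors. Its counts were 2884, 2627 and 1845 in GFP cells and 2634, 2119 and 2062 in POU5F1B cells. The CPM of 243, 200 and 161 in GFP cells bracketed those of 207, 196 and 172 in POU5F1B cells, and replicate 3 was the lowest in both groups, the reverse of its place for PVT1. The means were 201 ± 41.2 and 192 ± 18.2 CPM (SD, n = 3 each). The log2 fold change was -0.054 ± 0.17 (SE), with a 95% interval of 0.726-fold to 1.28-fold and a limma adjusted p of 0.932. On replicates 1 and 2 only it was -0.14 with a limma adjusted p of 0.318.

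NSMCE2 encodes the SUMO ligase of the SMC5/6 complex, which acts in DNA repair. It had 227, 264 and 233 counts in GFP cells and 210, 196 and 227 in POU5F1B cells, or 19.1, 20.1 and 20.3 CPM against 16.5, 18.2 and 18.9 CPM. It was the only tested gene of the set whose groups did not overlap (1 of 6 or 16.7%, against 19.4% of all tested genes), the gap between the highest POU5F1B and the lowest GFP library was small, and on total counts in place of TMM the groups of all 6 genes overlapped. The log2 fold change was -0.15 ± 0.15 (SE), with a 95% interval of 0.701-fold to 1.15-fold and a limma adjusted p of 0.710. On replicates 1 and 2 only it was -0.20 with a limma adjusted p of 0.353. NSMCE2 shares 141 exon bases with WASHC5 on the opposite strand.

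ASAP1 encodes a GTPase-activating protein for Arf GTPases that acts on membrane traffic and the actin cytoskeleton. It had 3009, 3401 and 1892 counts in GFP cells and 2105, 1889 and 2098 in POU5F1B cells. In CPM, GFP replicates 1 and 2 had 254 and 259, GFP replicate 3 had 165, and the POU5F1B libraries had 166, 175 and 175. GFP replicate 3 thus lay at the level of the POU5F1B libraries and the other GFP libraries lay above them. With all 6 libraries the log2 fold change was -0.37 ± 0.19 (SE), with a 95% interval of 0.567-fold to 1.06-fold and a limma adjusted p of 0.493. It was -0.59 without GFP replicate 3 (limma adjusted p = 0.00712) and -0.60 on replicates 1 and 2 only (95% interval -0.77 to -0.43, 0.658-fold, limma adjusted p = 0.000125), below the fold limit in both.

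**Figure D2:**
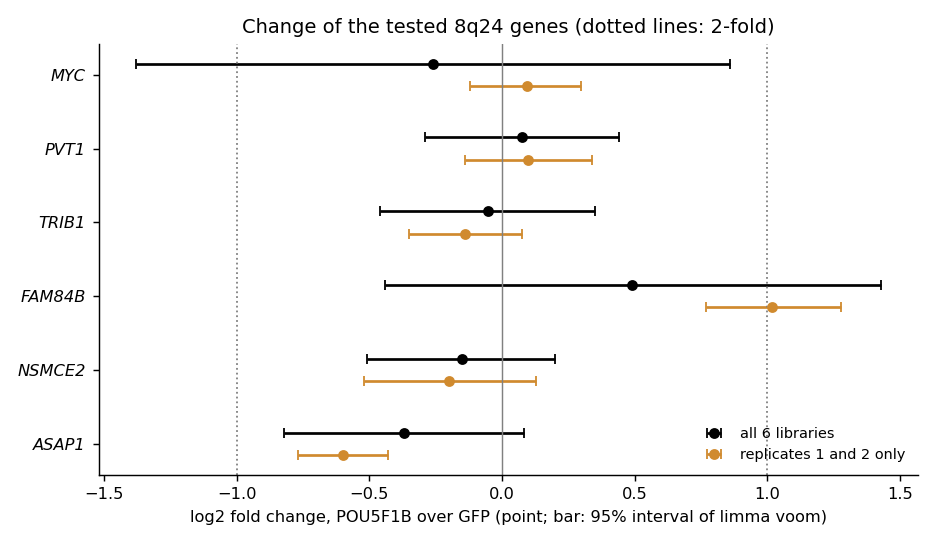
Log2 fold change of POU5F1B over GFP (x axis) for the 6 tested genes (y axis), with 95% intervals of limma voom, from all 6 libraries (black) and from replicates 1 and 2 of each group only (orange). On replicates 1 and 2 the intervals of FAM84B (0.77 to 1.28) and ASAP1 (-0.77 to -0.43) lie off 0, and the interval of MYC shrinks from -1.38 to 0.86 down to -0.12 to 0.30.

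The last 3 genes were at or under the floor of 3 counts in every library and were not tested. GSDMC, of the pore-forming gasdermin family, had 1 count in GFP replicate 3 and 0 in the other 5 libraries. CASC8, a long noncoding RNA gene, had 0, 1 and 1 counts in GFP cells and 0, 1 and 0 in POU5F1B cells. PCAT1, a long noncoding RNA gene first described in prostate cancer, had 0, 0 and 1 counts in GFP cells and 3, 0 and 1 in POU5F1B cells. PCAT1 shares 848 exon bases with POU5F1B on the same strand, and in the library with 15027 counts of POU5F1B it had 3. A difference in these genes was not detectable at this depth.

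Per kilobase of merged exon length, MYC (63.0 ± 46.3 CPM per kb) and TRIB1 (49.1 ± 10.1) were the most abundant of the set in GFP cells, followed by ASAP1 (27.2 ± 6.39), FAM84B (7.51 ± 5.01), NSMCE2 (6.63 ± 0.208) and PVT1 (1.82 ± 0.261; SD, n = 3 each). In POU5F1B cells TRIB1 had 46.8 ± 4.44 and MYC 45.4 ± 11.5 CPM per kb, followed by ASAP1 with 20.7 ± 0.65, FAM84B with 9.19 ± 0.558, NSMCE2 with 5.97 ± 0.408 and PVT1 with 1.91 ± 0.18 (SD, n = 3 each). MYC and TRIB1 did not differ beyond their spread in either group, nor did FAM84B and NSMCE2 in GFP cells. The places of MYC and FAM84B in the GFP order rested on GFP replicate 3: in GFP replicates 1 and 2 MYC had 35.4 and 37.3 CPM per kb, below TRIB1 with 59.3 and 48.8, and FAM84B had 4.39 and 4.85, below NSMCE2 with 6.39 and 6.72. PVT1 has 25431 bases of merged exons over many isoforms in this annotation, which lowers its level per length where few of them are used.

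The replicates also differed within the POU5F1B group, where the log2 difference of replicate 3 from the mean of replicates 1 and 2 was -3.20 for POU5F1B itself. The same difference was 0.57 for MYC, 0.22 for PVT1, 0.12 for NSMCE2, 0.037 for ASAP1, -0.15 for FAM84B and -0.23 for TRIB1. Between the GFP libraries the corresponding differences were 1.68 for MYC, 1.52 for FAM84B, 0.34 for PVT1, 0.047 for NSMCE2, -0.46 for TRIB1 and -0.64 for ASAP1. MYC and PVT1 were thus highest, and TRIB1 lowest, in replicate 3 of both groups.

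Within 3 Mb of POU5F1B on either side the annotation had 82 listed genes, of which 36 had a count in some library and 19 were tested. The 17 genes with a count that were not tested had at most 12 counts in a library. None of the 19 was called, their median log2 fold change was -0.054, and that of all tested genes was -0.023. The groups did not overlap for 7 of the 19, POU5F1B and NSMCE2 included (36.8%, against 19.4% of all tested genes), and 4 had an unadjusted p under 0.05 (21.1%, against 11.9%), namely POU5F1B, MTSS1, RNF139-DT and SQLE. POU5F1B, the gene carried by the vector, counts in both shares. Leaving out the set and POU5F1B, the median of the 12 other tested genes was -0.087. Of these 12, 5 had groups that did not overlap and 3 had an unadjusted p under 0.05 by limma. In the set these were 1 and 0 of the 6 tested genes. POU5F1B had a log2 fold change of 10.73 ± 2.78 (SE) with a limma adjusted p of 0.252 over all 6 libraries, and 11.18 with a limma adjusted p of 8.31e-09 on replicates 1 and 2 only.

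**Figure D3:**
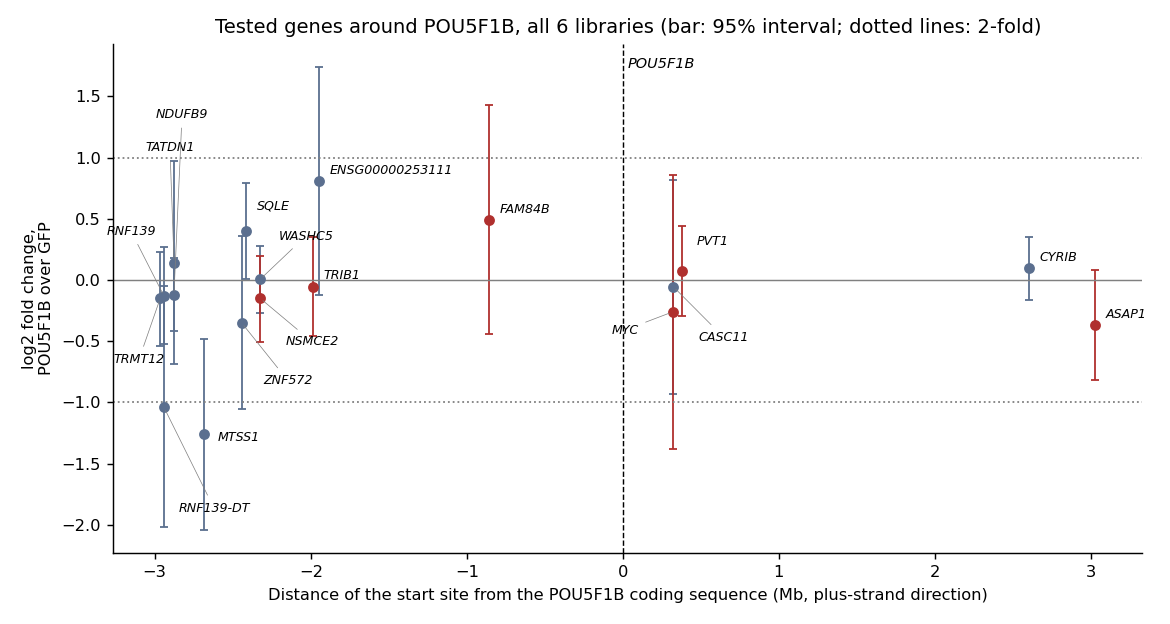
Log2 fold change of POU5F1B over GFP with 95% interval (y axis) against the distance of each gene's start site from the POU5F1B coding sequence in Mb (x axis), for the 18 tested genes of the window other than POU5F1B, with genes of the set in red and others in blue. Intervals of MYC and FAM84B are among the widest, and the points of PVT1 and CASC11, next to MYC, lie near 0.

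Beside MYC, the noncoding gene CASC11, which shares 194 exon bases with MYC on the opposite strand, had 19, 22 and 25 counts in GFP cells and 20, 13 and 32 in POU5F1B cells, with a log2 fold change of -0.054. WASHC5, beside NSMCE2, had a log2 fold change of 0.006, and CYRIB, toward ASAP1, had 0.10. The lowest log2 fold change of the window was that of MTSS1, which encodes a membrane-bending, actin-binding protein. MTSS1 had 640, 588 and 545 counts in GFP cells and 208, 149 and 434 in POU5F1B cells, so every POU5F1B library lay below every GFP library. Its log2 fold change was -1.26 ± 0.33 (SE) with a limma adjusted p of 0.252 over all 6 libraries, -1.28 (limma adjusted p = 0.0484) without GFP replicate 3 and -1.71 (limma adjusted p = 9.32e-06) on replicates 1 and 2 only. RNF139-DT, a noncoding gene with few counts, had 16, 19 and 19 in GFP cells and 11, 4 and 12 in POU5F1B cells, with no overlap and a log2 fold change of -1.04 ± 0.41 (SE, limma adjusted p = 0.396). SQLE, which encodes squalene epoxidase of sterol synthesis, had 923, 915 and 1061 counts in GFP cells and 1466, 1209 and 1057 in POU5F1B cells, with a log2 fold change of 0.40 ± 0.16 (SE) and a limma adjusted p of 0.411. SQLE on replicates 1 and 2 only had a log2 fold change of 0.62 with a limma adjusted p of 0.000466.

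Genes known to control MYC were read in the same fit. None of 13 tested genes of Wnt signalling, MYC stability and MYC transcription was called, 6 had a positive and 7 a negative log2 fold change, and their median was -0.087 against -0.023 for all tested genes. CTNNB1, which encodes β-catenin, had a log2 fold change of 0.35 ± 0.10 (SE) with a limma adjusted p of 0.285, and 0.38 (limma adjusted p = 0.00104) on replicates 1 and 2 only. LEF1, a DNA-binding partner of β-catenin, had -0.55 ± 0.18 (SE) with a limma adjusted p of 0.323, and -0.81 (limma adjusted p = 0.000132) on replicates 1 and 2 only. On those libraries 4 of the 13 had an adjusted p under 0.05 by limma, 1 higher and 3 lower, against 29.7% of all tested genes. On replicates 1 and 2 only, none of the 13 passed the fold limit. Over all 6 libraries APC had a log2 fold change of -1.10 ± 0.73 (SE) with a limma adjusted p of 0.592. APC, which serves β-catenin breakdown, had 101, 201 and 692 counts in GFP cells and 100, 128 and 100 in POU5F1B cells, so the library highest for MYC was also the highest for APC.

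Among the partners and rivals of MYC, 11 of 12 genes of the MAX network were tested and none was called, with 5 positive and 6 negative log2 fold changes and a median of -0.013. MAX itself had a log2 fold change of -0.30 ± 0.15 (SE) with a limma adjusted p of 0.485, and -0.24 (limma adjusted p = 0.134) on replicates 1 and 2 only. MXD4 and MXD3 encode MAX-binding proteins that oppose MYC. MXD4 had 240, 208 and 131 counts in GFP cells and 99, 53 and 119 in POU5F1B cells, with a log2 fold change of -1.08 ± 0.33 (SE) and a limma adjusted p of 0.305. MXD3 had a log2 fold change of -0.79 ± 0.39 (SE) and a limma adjusted p of 0.481. Both passed the limits on replicates 1 and 2 only (2 of 11 genes, against 8.36% of all tested genes). There MXD4 had -1.51 and MXD3 -1.23. MYCN, a paralog of MYC, was not tested, with 8, 6 and 5 counts in GFP cells and 34, 40 and 3 in POU5F1B cells.

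Of 30 genes known to be raised by MYC, all were tested and none was called, with 20 positive and 10 negative log2 fold changes and a median of 0.13, against -0.023 for all tested genes. Their summed level was 12268, 12544 and 18721 CPM in GFP replicates 1 to 3, and 14072, 14815 and 14396 CPM in the POU5F1B replicates. GFP replicate 3, the library highest for MYC, was thus also the highest for these genes, and 28 of the 30 were higher in it than in the mean of GFP replicates 1 and 2 (median log2 difference 0.49, against 0.035 over all tested genes). In POU5F1B replicate 3, where MYC was 0.57 log2 units above POU5F1B replicates 1 and 2, the median log2 difference of the 30 was 0.044. The summed level of each POU5F1B library lay above those of GFP replicates 1 and 2, and on replicates 1 and 2 only the median log2 fold change was 0.34. On those libraries 17 of the 30 had an adjusted p under 0.05 by limma, 16 higher and 1 lower, against 29.7% of all tested genes. Past both limits were 2 of the 30, against 8.36% of all tested genes. MYC itself differed by 0.094 on the log2 scale between those same libraries.

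**Figure D4:**
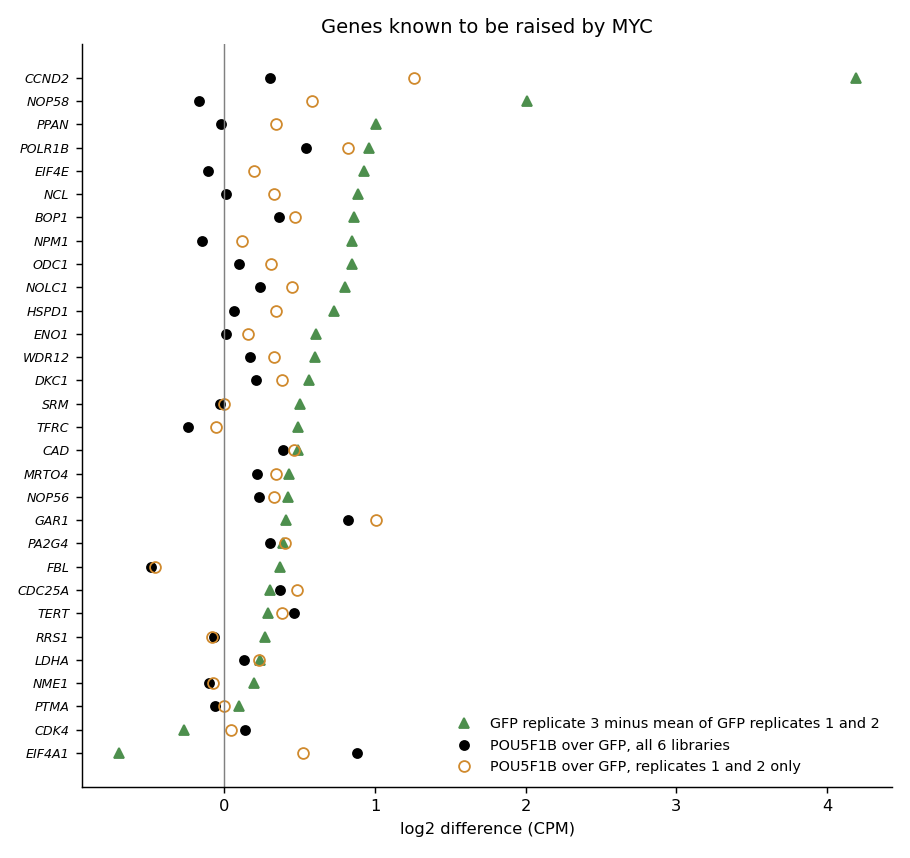
Log2 differences in CPM (x axis) for the 30 genes known to be raised by MYC (y axis), with green triangles for GFP replicate 3 minus the mean of GFP replicates 1 and 2, black points for POU5F1B over GFP in all 6 libraries, and orange circles for replicates 1 and 2 only. The triangles lie above 0 for 28 genes, with CCND2 farthest out, and most orange circles lie above the black points.

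The 4 raised targets with the lowest unadjusted p over all 6 libraries were GAR1, FBL, EIF4A1 and CDC25A. GAR1, a component of box H/ACA ribonucleoproteins, had a log2 fold change of 0.82 ± 0.16 (SE) and a limma adjusted p of 0.195, and on replicates 1 and 2 only it passed both limits with 1.01 (2.01-fold, limma adjusted p = 2.83e-05). FBL, the methyltransferase of box C/D ribonucleoproteins, had -0.49 ± 0.16 (SE) and a limma adjusted p of 0.317, opposite in sign to GAR1, and on replicates 1 and 2 only it was the lower gene of the 17, with -0.46 (limma adjusted p = 0.0022). EIF4A1, a translation initiation helicase, had 0.88 ± 0.29 (SE) with a limma adjusted p of 0.328. Its row held few counts, 97, 86 and 51 in GFP cells and 154, 98 and 161 in POU5F1B cells. CDC25A, a phosphatase that activates cyclin-dependent kinases, had 0.37 ± 0.13 (SE) with a limma adjusted p of 0.341. EIF4A1 had 0.52 (limma adjusted p = 0.093) and CDC25A 0.48 (limma adjusted p = 0.0018) on replicates 1 and 2 only. BOP1 and RRS1, ribosome biogenesis genes on chromosome 8 outside the window, had log2 fold changes of 0.36 and -0.067. CCND2, chosen after its values were seen, had 43, 48 and 794 counts in GFP cells and 123, 87 and 242 in POU5F1B cells, and was the other raised target past both limits on replicates 1 and 2 only (log2 fold change 1.26, limma adjusted p = 0.00172).

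Of 5 genes known to be lowered by MYC, none was called, with 3 positive and 2 negative log2 fold changes and a median of 0.19. CDKN2B, an inhibitor of cyclin-dependent kinases, had the lowest unadjusted p of the 5. It had 442, 504 and 211 counts in GFP cells and 93, 56 and 143 in POU5F1B cells. Every POU5F1B library lay below every GFP library, and the log2 fold change was -1.95 ± 0.42 (SE) with a limma adjusted p of 0.209. CDKN2B passed both limits on replicates 1 and 2 only, with -2.61 (0.164-fold, limma adjusted p = 1.46e-06), and with quality weights, with -2.38 (limma adjusted p = 0.000389). On replicates 1 and 2 this was 1 of the 5 genes, against 8.36% of all tested genes. In that fit 3 of the 5 had an adjusted p under 0.05 by limma, 1 higher and 2 lower with CDKN2B included, against 29.7% of all tested genes. NDRG1, on chromosome 8, had 1463, 1458 and 619 counts in GFP cells and 1621, 1199 and 945 in POU5F1B cells, lowest in replicate 3 of both groups.

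Over the 6 libraries, the Pearson correlation of log2 CPM with MYC was 0.816 for PVT1, 0.701 for FAM84B, 0.40 for NSMCE2, -0.546 for ASAP1 and -0.821 for TRIB1, and 12.2% of all tested genes had a higher correlation than PVT1. Leaving out GFP replicate 3 gave 0.844 for PVT1, 0.441 for FAM84B, -0.133 for NSMCE2, -0.52 for ASAP1 and -0.745 for TRIB1. The genes most like MYC over the 6 libraries were MRPL40, DDI2, NUDT19, SUGP2 and DNAH17, and those least like it were UBB, BRK1, ZDHHC3, SLC17A7 and NUP85. SUGP2 was also among the 5 most like MYC without GFP replicate 3. These correlations describe 6 libraries that share their scaling, and 1 library sets most of the spread in MYC.

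Most markers of the labelled cell type were detected: 8 of 10 colon cancer epithelium markers had enough counts to be tested. CDX1 had at most 2 counts, and LGR5 was above the floor of 3 counts only in replicate 3 of each group. The summed level of the 10 markers ran from 6366 to 9601 CPM under GFP, against 7908 to 8937 CPM under POU5F1B. KRT8 and KRT18 made up most of that sum, while KRT20 had at most 1.45 CPM. CDH1, which encodes E-cadherin, had 33.7, 30.2 and 72.7 CPM in GFP cells and 164, 159 and 98.3 in POU5F1B cells, with no overlap, and on replicates 1 and 2 only it was 5.02-fold higher (limma adjusted p = 1.81e-08). EPCAM, an epithelial adhesion molecule, had 86.8, 89.4 and 519 CPM in GFP cells and 320, 331 and 252 in POU5F1B cells, the order of libraries by group that FAM84B also had, with GFP replicates 1 and 2 below and GFP replicate 3 above every POU5F1B library. EPCAM was 3.66-fold higher on replicates 1 and 2 only (limma adjusted p = 1.24e-08). On those libraries 5 of the 8 tested markers were higher and 1 was lower at an adjusted p under 0.05 by limma. This level was reached by 29.7% of all tested genes. The lower marker was CDX2, with a log2 fold change of -0.58 (limma adjusted p = 0.0333). Over all 6 libraries the log2 fold change was 1.71 for CDH1 (limma adjusted p = 0.207) and 0.92 for EPCAM (limma adjusted p = 0.610). For CDX2 it was -0.32 (limma adjusted p = 0.775). Immune markers summed to 0.381 to 1.60 CPM under GFP, against 0 to 0.786 CPM under POU5F1B, with CD68 at 0 throughout, and the 2 endothelial markers matched summed to 1.22 to 5.98 and 2.58 to 6.53 CPM. Of 7 fibroblast markers 6 had counts, summing to 28.0 to 172 CPM under GFP, against 13.4 to 22.7 CPM under POU5F1B, with COL3A1 at 0 in all libraries. COL1A1 took most of that sum, with 1681, 1553 and 194 counts in GFP cells and 86, 60 and 114 in POU5F1B cells, so for COL1A1, as for ASAP1, GFP replicate 3 lay nearer to the POU5F1B libraries than the other GFP libraries did. LGR5, an intestinal stem cell marker, had 239 counts in GFP replicate 3 and 79 in POU5F1B replicate 3, and 0 or 1 in the other 4 libraries, while MYC too was highest in replicate 3 of each group. The part of these differences between replicates in the values of MYC, FAM84B and ASAP1 was not tested.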

How the data were processed

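Poly(A) RNA of 6 SW480 libraries (3 GFP, 3 POU5F1B) was prepared with a stranded kit and, per the study's methods, aligned with HISAT2 to hg19 and counted per gene with featureCounts. The strand setting of the counting is not given in the sources used here. The authors deposited raw counts per Ensembl gene for each library, 10767947 to 12787637 in total, and these counts were used as deposited. Symbols were matched by gene identifier for 55665 of 63677 rows (87.4%). Positions and exon lengths came from GENCODE release 44 on GRCh37, which may differ from the annotation counted. CCAT1, for which no identifier was matched, was not analysed here.

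Genes were filtered with filterByExpr (14286 kept), scaled by TMM in edgeR 4.0.16 and tested with limma voom (limma 3.58.1, R 4.3.3) across all 6 libraries, and p-values were adjusted by the Benjamini-Hochberg method over every gene tested. Calls were made at an adjusted p under 0.05 and a fold above 2. Log2 CPM used a prior count of 2. Alternatives were edgeR's quasi-likelihood test, DESeq2 1.42.0, other scalings and filters, quality weights, a replicate block, each library left out and replicates 1 and 2 only. The scripts were tested on simulated data. The floor of 3 counts covers counting error only. The genes of the set and the gene lists were chosen with earlier results of these data known. Named genes were the set, POU5F1B, tested genes of the window, and the MAX network and MYC control lists. Also named were the 4 raised MYC targets with the lowest p, the lowered target with the lowest p and MYC targets on chromosome 8. The genes most and least like MYC were named too. The scaling alternatives and main fit placed the median log2 fold change of all genes at -0.023 (TMM), -0.02 (DESeq2 size factors), 0.025 (upper quartile) and 0.015 (total counts).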

Additional observations from a re-analysis of the deposited data

How the results depend on the processing

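Over all tested genes, limma voom called 0 with all 6 libraries, DESeq2 called 232, quality weights 1077, no filter on low counts 4, a replicate block 1 and replicates 1 and 2 only 1194. Leaving out 1 library gave 0 to 595 calls, with 595 without GFP replicate 3 and 5 without POU5F1B replicate 3. Of the set, only the fit on replicates 1 and 2 called a gene (1, FAM84B, log2 fold change 1.02). In the window DESeq2 called 1, quality weights 2, the replicate block 1, replicates 1 and 2 only 3, and leave-one-out fits 0 to 1. POU5F1B, the gene carried by the vector, was the only window call by DESeq2, with the replicate block and without POU5F1B replicate 3. With quality weights the calls were POU5F1B and MTSS1, and without GFP replicate 3 the call was MTSS1. On replicates 1 and 2 only they were POU5F1B, FAM84B and MTSS1 (3 of 19 tested genes, against 8.36% of all tested genes). Of the MAX network, quality weights and replicates 1 and 2 only called 2 each and leave-one-out fits 0 to 2. Of the raised MYC targets, quality weights called 1 and replicates 1 and 2 only 2. Of the lowered targets DESeq2, quality weights and replicates 1 and 2 only called 1 each, and leave-one-out fits 0 to 1. These counts over the MYC-related lists were chosen after seeing the data. The cause of these differences was not tested.

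The MYC log2 fold change of -0.26 turned to 0.18 with quality weights and 0.094 on replicates 1 and 2 only, and ran from -0.56 to 0.28 over leave-one-out fits. TRIB1 ran from -0.22 to 0.091 (0.091 without GFP replicate 1, 0.032 without POU5F1B replicate 3). The ratio of PVT1 to MYC changed sign without GFP replicate 3 (-0.11), with leave-one-out log2 differences of -0.11 to 0.57. POU5F1B was called by DESeq2 (11.24), quality weights (10.89), the replicate block (10.83), replicates 1 and 2 only (11.18) and the fit without POU5F1B replicate 3 (11.82, limma adjusted p = 0.0157), and ran from 10.11 to 11.82 over leave-one-out fits. PVT1 and FAM84B stayed positive and NSMCE2 and ASAP1 negative under all 16 settings. With quality weights FAM84B had 0.96 (limma adjusted p = 0.00177) and ASAP1 -0.59 (limma adjusted p = 0.00156).

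Libraries with the same replicate number had deviations from their group means that correlated at 0.242, 0.0883 and 0.165, all positive. The main fit left replicate number out, following the study's methods, and the replicate block was run as an alternative. Whether same-numbered libraries were prepared together is not stated in the sources used here. With the block the SE fell from 0.47 to 0.27 for MYC and from 2.78 to 0.40 for POU5F1B, and went from 0.39 to 0.40 for FAM84B. With the replicate block MYC had -0.31 and FAM84B 0.39 by limma, and none of the set was called.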
